A study of Mus musculus with 2 samples.

Results

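The Dlx homeobox genes of the first pharyngeal arch, Dlx1 to Dlx6, were followed in the mandibular prominence, the facial swelling that forms the lower jaw and carries the early tongue. All deposited transcripts listed under one of these 6 gene symbols were taken, which gave 9 of 59055 transcripts and 6 of 30723 genes. RNA was measured in 2 libraries, each of total RNA from a pool of 10 embryos at stage E11.5, with CD1 as mixed strain background. The first group is labelled control, without further genotype. The second is labelled Kif3a f/f ; Wnt1-Cre: the gene of the ciliary kinesin-2 subunit Kif3a is floxed and is deleted by a Cre that the Wnt1 promoter drives, so deletion is limited to neural crest cells and their descendants, and epithelium, muscle precursors, endothelium and blood keep the gene. The title of the series concerns GLI processing at the cilium and tongue development, and the comparison addresses what differs in the jaw primordium when the neural crest lacks this motor.

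Dlx proteins are homeodomain transcription factors, relatives of the fly gene Distal-less. The mouse genes lie as linked pairs, Dlx1 with Dlx2, Dlx3 with Dlx4 and Dlx5 with Dlx6, and the genes of a pair share enhancers. In the neural crest mesenchyme of the arches they are expressed in a nested order: Dlx1 and Dlx2 in both the upper and the lower jaw part, Dlx5 and Dlx6 mainly in the lower jaw part, and Dlx3 and Dlx4 in a smaller distal domain. Endothelin signalling through its receptor switches on Dlx5 and Dlx6, and mice without both genes form a lower jaw with upper jaw features. Some Dlx genes are also active in facial epithelium, in the forebrain and in the otic and olfactory placodes.

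Every member gene has a second exon that encodes the first part of the homeodomain, the DNA-binding part of the protein. These exons are shown because the alternative transcripts on which the results turn lack this exon or part of it, and because they show how far reads of one member can be told from those of another. They were read from the GENCODE M21 transcripts on GRCm38, 5′ to 3′ on the strand of the gene, and capitals mark bases that are identical in all 6 genes when the exons are aligned at their 3′ ends without gaps.
Dlx1 exon 2, chr2:71530957-71531156, plus strand: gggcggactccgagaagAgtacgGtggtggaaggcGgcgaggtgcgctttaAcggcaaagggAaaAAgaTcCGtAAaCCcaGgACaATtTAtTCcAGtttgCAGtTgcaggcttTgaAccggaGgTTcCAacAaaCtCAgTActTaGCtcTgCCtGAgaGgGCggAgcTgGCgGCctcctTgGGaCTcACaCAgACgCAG
Dlx2 exon 2, chr2:71545384-71545568, minus strand: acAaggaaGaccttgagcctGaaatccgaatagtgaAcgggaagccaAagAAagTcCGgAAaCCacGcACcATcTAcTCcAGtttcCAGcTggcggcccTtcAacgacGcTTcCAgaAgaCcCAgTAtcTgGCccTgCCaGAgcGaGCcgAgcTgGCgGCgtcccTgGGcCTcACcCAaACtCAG
Dlx3 exon 2, chr11:95121708-95121898, plus strand: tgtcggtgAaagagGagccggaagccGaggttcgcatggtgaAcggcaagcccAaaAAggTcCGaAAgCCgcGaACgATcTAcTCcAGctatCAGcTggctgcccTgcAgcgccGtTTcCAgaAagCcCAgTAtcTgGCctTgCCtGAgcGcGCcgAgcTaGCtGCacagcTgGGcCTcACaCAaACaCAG
Dlx4 exon 2, chr11:95141789-95141979, minus strand: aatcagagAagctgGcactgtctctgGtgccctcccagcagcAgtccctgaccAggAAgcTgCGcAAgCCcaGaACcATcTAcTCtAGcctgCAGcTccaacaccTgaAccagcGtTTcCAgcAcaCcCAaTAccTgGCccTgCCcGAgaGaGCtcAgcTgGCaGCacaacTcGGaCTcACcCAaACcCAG
Dlx5 exon 2, chr6:6879526-6879710, minus strand: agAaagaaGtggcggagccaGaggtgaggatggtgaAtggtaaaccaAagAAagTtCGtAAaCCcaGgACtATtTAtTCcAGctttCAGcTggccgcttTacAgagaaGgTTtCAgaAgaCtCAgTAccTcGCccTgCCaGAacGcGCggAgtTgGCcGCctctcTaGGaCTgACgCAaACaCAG
Dlx6 exon 2, chr6:6865078-6865271, plus strand: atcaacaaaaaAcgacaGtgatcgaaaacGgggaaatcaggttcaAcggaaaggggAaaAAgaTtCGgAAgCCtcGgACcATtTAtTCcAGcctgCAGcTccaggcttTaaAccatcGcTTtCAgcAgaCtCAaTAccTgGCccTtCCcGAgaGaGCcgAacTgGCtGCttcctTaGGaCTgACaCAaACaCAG
Over the 185 bases that can be compared, 73 bases (39.5%) were identical in all 6 genes. The identity between members ranged from 54.1% for Dlx4 and Dlx5 to 75.7% for Dlx2 and Dlx3. It was 61.1% to 65.9% within the linked pairs, and the linked neighbour was the most similar member for Dlx4 alone. The longest stretch that any member shared exactly with another over the whole coding transcript was 23 bases, in 15 comparisons between members.

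The values are FPKM, fragment numbers corrected for transcript length and sequencing depth, summed over the transcripts of a gene. There is 1 library per group, so no difference has a replicate check and no test between the groups exists. Intervals in parentheses are 95% counting intervals, exact Clopper-Pearson for a ratio and exact Poisson for a level, on approximate fragment numbers, in all about 24700000 for control and 24500000 for mutant. They cover counting error only and are too narrow for a difference between conditions. The log2 ratio is log2((mutant FPKM + 1) / (control FPKM + 1)), and this scale makes differences of low genes smaller than they are. It was compared over the 12259 genes whose FPKM averaged 1 or more, and their median was -0.13. By their names, the deposited tables come from separate sequencing runs, and the name of the mutant table has stage E11 where the labels have E11.5, so genotype cannot be told apart from run or from a possible difference in stage. Kif3a stood at 11.46 FPKM in the control library against 5.39 in the mutant, and the ratio was 0.471 (0.431 to 0.514). In bulk tissue, fewer cells of a type and less RNA per cell cannot be told apart.

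All 6 Dlx genes passed the filter on mean FPKM, and their summed level was 179 FPKM in the control library against 162 FPKM in the mutant. The order of the levels was the same in both libraries: Dlx5, Dlx6, Dlx2, Dlx3, Dlx1 and Dlx4, from high to low. The counting intervals of neighbours in this order did not overlap in either library. The Dlx5-Dlx6 pair made up 64.2% of the summed Dlx level in control and 61.1% in mutant tissue, the Dlx1-Dlx2 pair 22.9% and 25.9%, and the Dlx3-Dlx4 pair 12.9% and 13.0%. Dlx5 exceeded 91.1% of all compared genes in each library, and Dlx4 exceeded 21.7% of them in the control and 10.5% in the mutant.

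**Figure D1:**
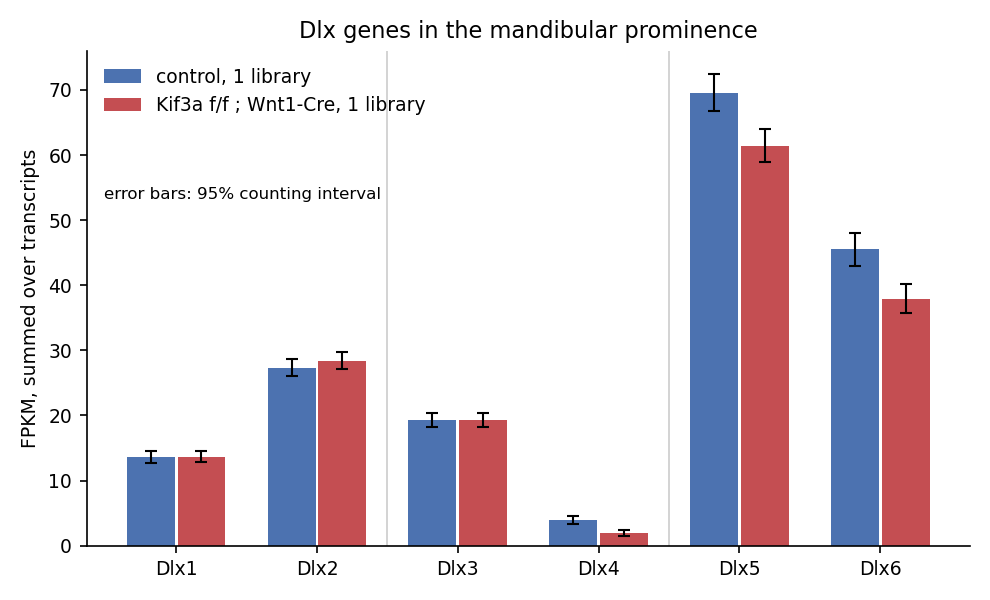
FPKM of the 6 Dlx genes, summed over transcripts, in the control library and in the Kif3a f/f ; Wnt1-Cre library. Error bars are 95% counting intervals and grey lines separate the linked pairs; the bars of Dlx1, Dlx2 and Dlx3 are level between the libraries, those of Dlx5 and Dlx6 are slightly shorter in the mutant, and Dlx4 falls from 3.90 to 1.91 FPKM.

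No Dlx gene was 2-fold lower or 2-fold higher in the mutant on the log2 scale. Among all compared genes 1.36% (167 genes) were at least 2-fold lower and 0.767% (94 genes) at least 2-fold higher. This split depends on scaling: TPM-like scaling, which sets the sum of FPKM equal in both libraries, gave 85 lower and 581 higher, and centring on the median gene 129 and 132. At a limit of 1.5-fold in either direction, 1 of the 6 Dlx genes, Dlx4, was past it and 5 were within it, where 8.33% of all compared genes were past it. The median log2 ratio of the 6 genes was -0.09, beside -0.13 over all compared genes, with 3 members above and 3 below the median gene.

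Dlx1 and Dlx2, the pair expressed in both jaw parts, lie on chromosome 2 from 71529445 to 71546754 on GRCm38. Dlx1 stood at 13.6 FPKM in the control library (12.7 to 14.5) against 13.6 in the mutant (12.8 to 14.5), a ratio of 1.003 (0.917 to 1.10). Dlx2 stood at 27.4 FPKM (26.1 to 28.7) and 28.4 (27.1 to 29.7), a ratio of 1.04 (0.971 to 1.11). On the deposited scale the libraries did not differ beyond counting error for either gene. With TPM-like scaling, which sets the sum of FPKM equal in both libraries, the log2 ratios were 0.57 and 0.63, and after centring on the median gene 0.14 and 0.18. Dlx2 was 2.02 times as abundant as Dlx1 in control and 2.09 times in mutant tissue. The log2 ratios of 0.00 and 0.05 exceeded those of 68.3% and 73.7% of all compared genes, since the median gene was below 0. Of the Dlx1 transcripts, the spliced one of 2779 bases carried the gene, and the one of 3887 bases, which keeps an intron, was listed at under 1 fragment in both libraries.

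Dlx1 shares its locus with Dlx1as, an antisense transcript, whose value was higher than that of Dlx1 itself. Dlx1as stood at 32.4 FPKM in the control library against 29.6 in the mutant, with a ratio of 0.912 (0.860 to 0.968) and a log2 ratio of -0.13, that of the median gene. Its exons overlap 1055 bases of the Dlx1 exons, 38.0% of the spliced Dlx1 transcript. With the Dlx1 transcript that keeps an intron, they share 2162 bases, 77.4% of the Dlx1as exons. The strandedness of the libraries is not given in the sources used here, so reads of Dlx1 and Dlx1as within these bases may not have been told apart.

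Dlx3 and Dlx4 lie on chromosome 11 from 95120117 to 95145801. Dlx3, which is also known from tooth, hair and bone formation, stood at 19.2 FPKM in both libraries (18.2 to 20.3 in each). The ratio was 0.9999 (0.925 to 1.08). With TPM-like scaling the log2 ratio of Dlx3 was 0.57, and after centring on the median gene 0.13. Its neighbour Dlx4, the least abundant member, stood at 3.90 FPKM in the control library (3.32 to 4.56) against 1.91 in the mutant (1.53 to 2.35), from some 160 and 88 fragments. Dlx4 was thus 2.05-fold lower in the mutant (1.57 to 2.69) by the plain ratio, with a log2 ratio of -0.75. Only 2.75% of all compared genes had a lower log2 ratio. Dlx3 was 4.93 times as abundant as Dlx4 in control and 10.1 times in mutant tissue, and the log2 ratios of this pair differed by 0.75, against 0.05 for Dlx1 and Dlx2 and 0.08 for Dlx5 and Dlx6 in absolute size.

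As the authors' tool divided the Dlx4 level between its forms, the difference lay in the shorter transcript. This division is an estimate, and the counting intervals do not cover its error. The coding transcript, of 1820 bases and 3 exons, stood at 1.51 FPKM in the control library (1.17 to 1.92) against 1.40 in the mutant (1.08 to 1.77), and the ratio was 0.922 (0.647 to 1.31). The shorter transcript, of 1593 bases, stood at 2.39 FPKM (1.93 to 2.93) and 0.513 (0.319 to 0.781), on about 93 and 21 fragments. It was 4.66-fold lower in the mutant (2.89 to 7.85), and its share of the Dlx4 sum went from 61.2% to 26.9%. This transcript matches a GENCODE model that is annotated as a processed transcript without a coding sequence: it shares the 606 bases of the first exon with the coding form, continues in 987 bases from 95143627 to 95144613, which lie in an intron of the coding form, and holds none of exon 2 shown above. With the transcript of the highest mean FPKM alone, which is the coding one by a small margin, Dlx4 had a log2 ratio of -0.07 and lay above the median gene.

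Dlx5 and Dlx6, the lower jaw pair, lie on chromosome 6 from 6863334 to 6882068. Dlx5 stood at 69.5 FPKM in the control library (66.7 to 72.4) against 61.4 in the mutant (58.9 to 63.9), and the ratio was 0.883 (0.833 to 0.936). Dlx6 stood at 45.5 FPKM (43.0 to 48.1) and 37.9 (35.8 to 40.2), a ratio of 0.834 (0.769 to 0.905). Both ratios were below 1 beyond counting error, yet the log2 ratios of -0.18 and -0.26 lay close to the -0.13 of the median gene and exceeded those of 43.2% and 31.2% of all compared genes. These transcripts are short, of 1406 and 1071 bases, and the median log2 ratio moved with length, from -0.26 for 1299 genes of 1000 to 1500 bases to -0.16 for 2244 genes of 2200 to 3000 bases. With the trend along transcript length removed, Dlx5 had a log2 ratio of 0.07 and Dlx6 of 0.02, and TPM-like scaling turned the direction of both, to 0.41 and 0.32, where the median gene was at 0.41. Dlx5 was 1.53 times as abundant as Dlx6 in the control and 1.62 times in the mutant.

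Within Dlx5 the difference again lay in the alternative transcript. The full-length form of 1406 bases stood at 57.7 FPKM in the control library (55.2 to 60.3) against 56.5 in the mutant (54.1 to 58.9), and the ratio was 0.978 (0.920 to 1.04). The form of 1324 bases stood at 11.8 FPKM (10.6 to 13.1) and 4.90 (4.20 to 5.69), on about 377 and 173 fragments, which is 2.41-fold lower in mutant tissue (2.01 to 2.90). Its share of the Dlx5 sum was 17.0% in control and 7.99% in mutant tissue. The shorter form skips the first 82 bases of the Dlx5 exon 2 shown above, chr6:6879629-6879710, which is not a multiple of a codon, and its annotated coding sequence has 438 bases where that of the full form has 867. The joints of exon 1 (lower case) with exon 2 (capitals) are the bases that tell these forms apart, read from GENCODE M21 on GRCm38.
Dlx5 full form, exon 1 to exon 2: ccaccagccagccagAGAAAGAAGTGGCGG
Dlx5 shorter form, exon 1 to exon 2: ccaccagccagccagCTTTCAGCTGGCCGC
Only reads over these joints or within the skipped stretch tell the forms apart, so the division of the Dlx5 level between its forms is an estimate of the authors' tool, whose error the counting interval does not cover.

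Of the 5 Dlx transcripts above the filter in genes with more than 1 transcript, 2 were at least 2-fold lower in the mutant and 0 at least 2-fold higher. Both are the forms that lack the whole or the first part of the homeodomain exon. Over the transcripts of all genes with more than 1 transcript and a mean FPKM of 1 or more, 3.97% were at least 2-fold lower and 3.59% at least 2-fold higher. These shares include transcripts of genes that differed as a whole.

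**Figure D2:**
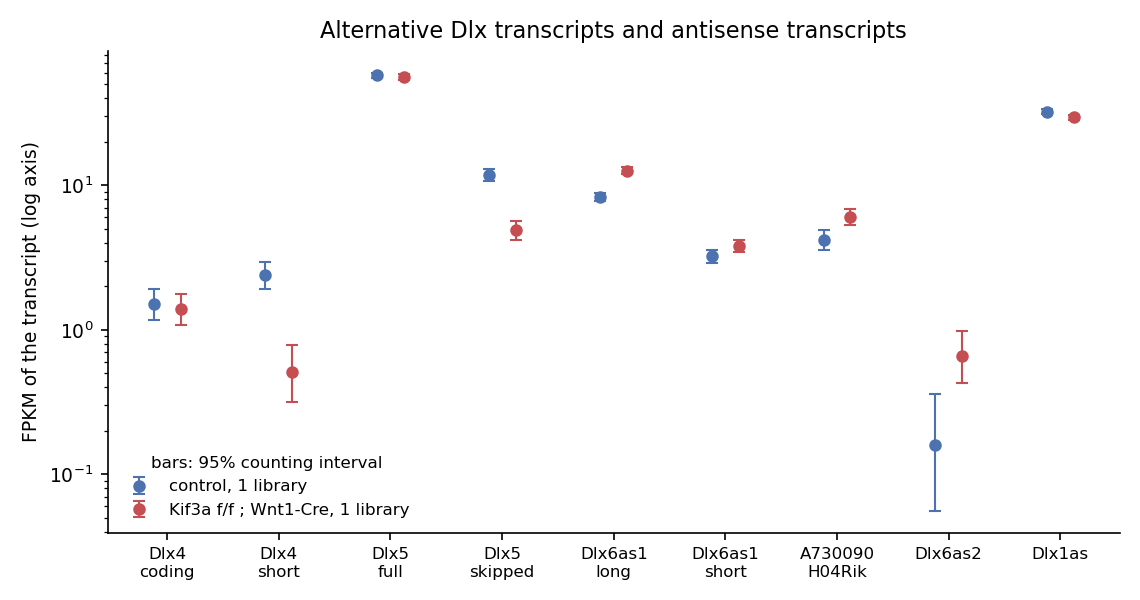
FPKM on a log axis of the Dlx4 and Dlx5 transcripts and of 4 antisense genes, in 1 control and 1 Kif3a f/f ; Wnt1-Cre library, with 95% counting intervals. The intervals of the coding Dlx4 transcript and of the full Dlx5 form overlap between the libraries. The short Dlx4 transcript (2.39 and 0.513 FPKM) and the Dlx5 form with the skipped stretch (11.8 and 4.90 FPKM) are lower in the mutant. The long Dlx6as1 transcript, A730090H04Rik and Dlx6as2 are higher, and Dlx1as is slightly lower. The shorter Dlx6as1 transcript is higher too, but its intervals overlap.

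The antisense genes Dlx6as1 and A730090H04Rik, at the Dlx5-Dlx6 and Dlx3-Dlx4 loci, had higher values in the mutant library. Dlx6as1, also known as Evf, is a noncoding RNA on the strand opposite to Dlx6 that is known to take part in the control of this pair in the forebrain; its long transcript starts between Dlx5 and Dlx6 and runs across Dlx6, and its shorter one starts beyond Dlx6. It stood at 11.52 FPKM in the control library (10.9 to 12.2) against 16.4 in the mutant (15.7 to 17.2), with a ratio of 1.43 (1.33 to 1.53) and a log2 ratio of 0.48. The long transcript of 4247 bases stood at 8.28 and 12.6 FPKM, a ratio of 1.53 (1.41 to 1.66), and the one of 4146 bases at 3.23 and 3.80 FPKM, a ratio of 1.17 (1.02 to 1.36). Dlx6as1 lay above the median gene under the main setting and all 9 other settings of scaling, length, pseudocount, transcript choice and quantity, by 0.47 to 0.71 on the log2 scale. Its exons overlap no exon of Dlx5 or Dlx6, so missing strand information would not mix their exonic reads.

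The other antisense genes at these loci were less abundant. A730090H04Rik, named Dlx4os in RefSeq, has a first exon that overlaps the end of Dlx4 exon 1 on the opposite strand, and it stood at 4.20 FPKM in the control library (3.60 to 4.88) against 6.04 in the mutant (5.33 to 6.81), a ratio of 1.44 (1.18 to 1.75). It lay above the median gene under the same 10 settings, and its exons share 79 bases with exon 1 of Dlx4, which both Dlx4 transcripts contain. Dlx6as2, which lies opposite the first exons of Dlx6, stood at 0.160 and 0.660 FPKM, on about 6 and 25 fragments, under the filter and with 104 bases shared with Dlx6 exons. None of these genes was 2-fold higher on the log2 scale, though the plain ratio of Dlx6as2 was 4.11 (1.60 to 12.9).

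The long Dlx6as1 transcript has its start in the region between Dlx6 and Dlx5, which is known to hold enhancers of the pair, and its upstream sequence is shown for that reason. It was taken from the RefSeq promoter table on GRCm38.p6, chr6:6869534-6869783, minus strand, 5′ to 3′, as the 250 bases before the start at 6869533, and capitals mark each TAATTA, a core that homeodomain proteins bind.
Dlx6as1 long transcript, upstream: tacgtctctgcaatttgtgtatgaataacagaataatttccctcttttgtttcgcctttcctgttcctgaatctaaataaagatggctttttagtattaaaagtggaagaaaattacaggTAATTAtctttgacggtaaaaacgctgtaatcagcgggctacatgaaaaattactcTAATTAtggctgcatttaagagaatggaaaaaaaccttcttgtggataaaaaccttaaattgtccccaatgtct
Both matches, which begin 130 and 74 bases before the start, read the same on either strand. TAATTA was present in 5.29% of all 32851 promoters of 300 bases in that table, in 2 of the 4 promoters of antisense genes of these loci, both of Dlx6as1, and in 0 of 2 for the Dlx genes in it, Dlx1 and Dlx2. GGTGGTC, a core of the GLI binding site, searched on both strands, was present in 2.80% of all promoters and in none of these 6. A match describes letters in a window and not a bound site.

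**Figure D3:**
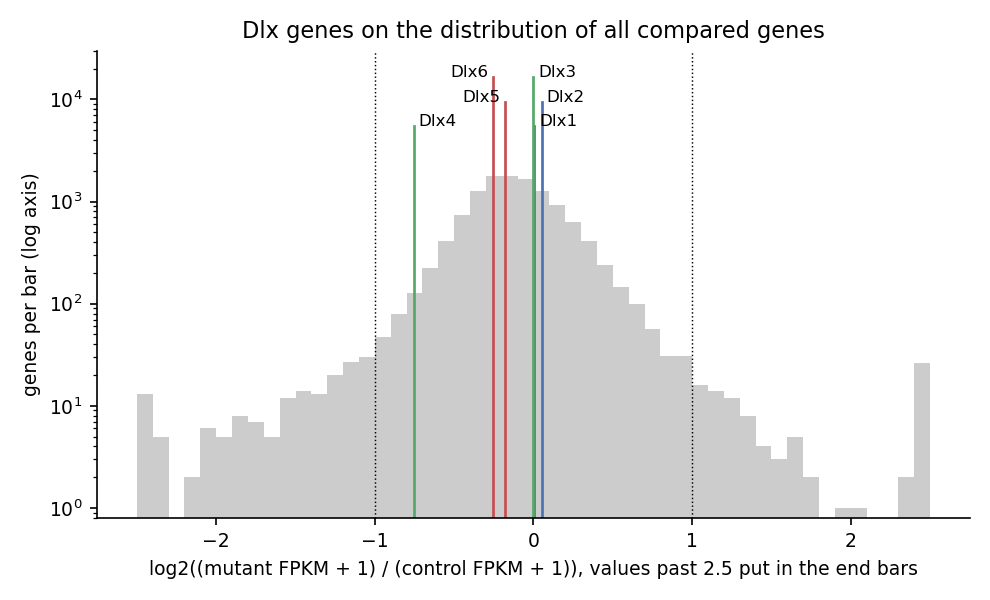
Number of genes (log axis) per log2 ratio for the 12259 compared genes (grey), with the 6 Dlx genes as lines coloured by linked pair and dotted lines at 2-fold. Dlx1, Dlx2, Dlx3, Dlx5 and Dlx6 stand in the centre of the distribution, between -0.26 and 0.05, and Dlx4 at -0.75 stands in its lower flank.

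Genes of the Dlx pathway were described in 4 lists, by counts and medians and without a test. Of 7 genes of endothelin input to Dlx5 and Dlx6, 6 passed the filter, 2 of them above and 4 below the median gene and 0 past 2-fold, with a median log2 ratio of -0.26. The receptor gene Ednra stood at 23.7 FPKM in the control library against 19.7 in the mutant, and the most abundant member, the G protein gene Gna11, at 29.8 and 24.8. Mef2c, a transcription factor that acts between the receptor and the Dlx genes, stood at 3.05 and 2.05 FPKM, a ratio of 0.674 (0.585 to 0.775), and the protease gene Furin, whose product cuts the endothelin precursor, at 12.9 and 10.5. The ligand gene Edn1 was under the filter, at 0.413 and 0.431 FPKM. Mef2c lay below the median gene under all 10 settings. It is also expressed in endothelium and skeletal muscle, whose markers summed to 34.7 against 25.3 FPKM and to 20.8 against 3.55 FPKM, and the part of these tissues in the Mef2c value was not tested.

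The 7 genes of BMP and FGF input and of partner factors had a median log2 ratio of 0.09, with 5 above and 2 below the median gene and 0 past 2-fold. Msx1 and Msx2, homeobox targets of BMP signalling in the distal arch, stood at 40.0 and 25.7 FPKM in the control library against 51.7 and 34.7 in the mutant, with log2 ratios of 0.36 and 0.42. Fgf8, an epithelial signal that induces Dlx genes in the arch, stood at 12.9 and 17.4 FPKM, and Bmp4 at 15.5 in both. Foxc1, a forkhead factor, stood at 5.57 and 3.32 FPKM, with a log2 ratio of -0.61, and the most abundant member, the nuclear receptor gene Nr2f1, at 55.9 and 45.4. Msx1, Msx2 and Fgf8 lay above and Foxc1 below the median gene under all 10 settings.

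The 12 lower jaw genes known to be lowered when Dlx5 and Dlx6 are lost did not move one way. All 12 passed the filter, 6 above and 6 below the median gene, 0 past 2-fold, with a median log2 ratio of -0.09. The lowest by log2 ratio were Plagl1, an imprinted zinc finger gene, and Cited1, a transcriptional coactivator gene. Plagl1 stood at 74.3 and 39.2 FPKM, a ratio of 0.528 (0.508 to 0.549). Relative to the median gene, its log2 ratio was -0.77 in the main setting and -0.35 with the most abundant transcript alone. Cited1 stood at 83.7 and 46.3 FPKM, a ratio of 0.553 (0.513 to 0.596). By the plain ratio Bmper, at 2.11 and 1.14 FPKM, was lower than Cited1, at 0.538 (0.421 to 0.685). The distal homeobox gene Gsc and the distal factor gene Hand2 had log2 ratios of -0.62 and -0.41, and the most abundant member, Pitx1, which shapes the lower jaw and hindlimb, stood at 98.7 and 83.2 FPKM. On the other side, the netrin receptor gene Unc5c stood at 8.25 and 13.8 FPKM, Rgs5 at 3.63 and 6.28, and the homeobox gene Gbx2 at 2.31 and 3.99, with log2 ratios of 0.68, 0.65 and 0.59, and Hand1 had 0.41. These members lay on the same side of the median gene under all 10 settings, Pitx1 and Bmper not counted.

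Of 3 upper jaw genes that Dlx5 and Dlx6 hold down, 1 was at least 2-fold lower in the mutant and 0 higher, where 1.36% of all compared genes were 2-fold lower. This call, of Pou3f3, was lost with a pseudocount of 5, and a filter at a mean FPKM of 5 left the gene out. Pou3f3 stood at 6.06 FPKM in the control library against 1.49 in the mutant, and the ratio was 0.245 (0.200 to 0.299). The most abundant member, the homeobox gene Irx5, stood at 10.7 and 6.70 FPKM, a ratio of 0.625 (0.552 to 0.707), and the forkhead gene Foxl2 at 2.02 in both. Pou3f3 and Irx5 lay below the median gene under all 10 settings.

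**Figure D4:**
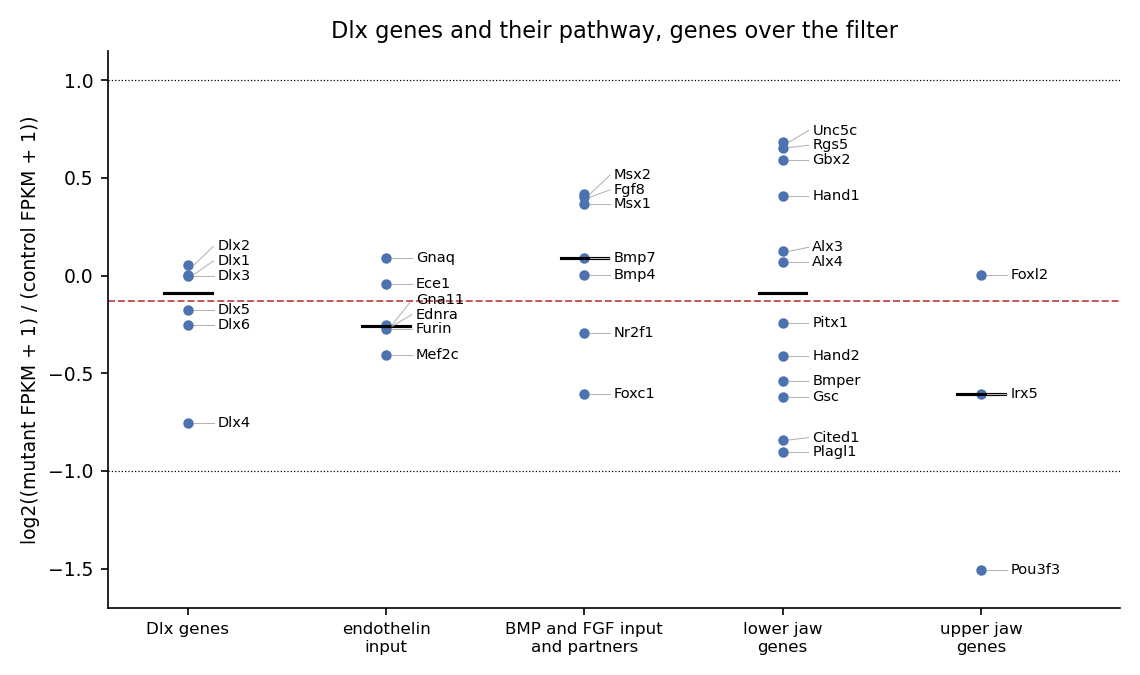
Log2 ratio of the 6 Dlx genes and of the genes of 4 pathway lists that passed the filter, each a point. Black bars are medians, the dashed line is the median of all compared genes at -0.13 and dotted lines mark 2-fold; the lower jaw genes spread from -0.90 for Plagl1 to 0.68 for Unc5c, and Pou3f3 alone is past 2-fold.

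Markers of tissues and cell types were set beside these values. The 5 markers of cranial neural crest mesenchyme summed to 465 FPKM in the control library against 451 in the mutant, with 3 above and 2 below the median gene. The 6 markers of oral epithelium summed to 94.6 and 119 FPKM and all 6 lay above the median gene, and the part of epithelium in the Dlx values was not tested. Of the 4 endothelial markers, 1 lay above and 3 below the median gene. The 4 skeletal muscle markers summed to 20.8 and 3.55 FPKM and the 4 erythroid markers to 20231 and 5269, both lower in the mutant library. The forebrain markers Gad1, Gad2, Nkx2-1 and Slc32a1 were at or below 0.169 FPKM in both libraries, and Emx2 stood at 4.60 and 3.19. The otic and olfactory markers Oc90, Pax2, Pax8 and Six3 were at or below 0.0453 FPKM, and Sox10, which neural crest also expresses, stood at 1.08 and 0.415. These forebrain and placode markers, other than Emx2 and Sox10, were thus at or near 0 beside the Dlx levels.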

How the data were processed

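RNA-seq was done on 2 libraries, 1 per group, each from 10 pooled embryos. The authors deposited 1 table per library of 59120 lines, each a transcript with a coverage signal and an FPKM value, per the file headers; Cufflinks is named as the tool by the deposited tables' names, and its version, the aligner and the strandedness were not given in the sources used here. Although the genome build named in the submitters' processing notes is mm9, the loci fit GRCm38: of 45475 transcripts with a GENCODE M21 symbol, 72.1% shared a start or end, and starts were 0-based, so 1 was added. In 65 lines spaces in gene names displaced the columns, and these were left out; 404 control values marked LOWDATA and 6 mutant values marked FAIL stayed in.

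FPKM was summed by symbol. Deposited coverage signal times length, divided by the yield of 1 fragment (156 and 153 bases, the median of values between 80 and 220 in genes with 1 transcript of over 1500 bases), gave approximate fragments for the intervals. PCR duplicates are not known, so intervals cover counting error only. Deposited Dlx and antisense transcripts were matched to GENCODE models by span and length. Calculations used Python 3.11.15, pandas 2.3.3, scipy 1.17.1 and statsmodels 0.14.6 (lowess, fraction 0.3) and were tested on simulated data. With 1 library per group no p-value was computed.

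The members and lists were chosen with earlier results of these data known. Named were all members and their transcripts, the antisense genes, and the most abundant and, by log2 ratio, 2 most different genes of each list. Up to 3 neighbours on each side within 200 kb of a pair were named too. Edn1, Ednra, Msx1, Fgf8, Bmp4, Gsc, Hand1, Hand2, Bmper, Rgs5, Unc5c, Gbx2 and Foxl2 are named in addition, after their values were seen. With 2 libraries, genes of like pattern were not sought. Some marker genes are not reported here.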

Additional observations from a re-analysis of the deposited data

How the results depend on the processing

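Of 245 recomputed values, 179 kept within the counting interval or count and 66 moved. No paired analysis was possible because each group has 1 library, and no replicate could be left out. The median gene moved from -0.13 to 0.00 after centring, -0.01 with upper quartile scaling, 0.41 with TPM-like scaling, 0.11 with that scaling without transcripts under 200 bases, -0.01 without the length trend and -0.01 with coverage times length. Past 2-fold, 94 genes were higher and 167 lower, against 132 and 129, 125 and 137, 581 and 85, 230 and 142, 126 and 109, and 126 and 140 in these settings, 179 and 312 with a pseudocount of 0.1, 36 and 56 with one of 5, and 131 and 226 with the most abundant transcript. Dlx1, Dlx2 and Dlx3 lay above the median gene under all 10 settings. Dlx4 lay above it with the most abundant transcript alone, Dlx5 with that and without the length trend, and Dlx6 without the length trend. The log2 ratios of Dlx1, Dlx2, Dlx3, Dlx5 and Dlx6 were 0.14, 0.18, 0.13, -0.046 and -0.12 after centring, 0.13, 0.18, 0.13, -0.043 and -0.12 with upper quartile scaling, 0.57, 0.63, 0.57, 0.41 and 0.32 with TPM-like scaling, 0.26, 0.32, 0.26, 0.086 and 0.0051 without short transcripts in it, and 0.15, 0.21, 0.15, 0.068 and 0.017 without the length trend. With coverage times length, Dlx1, Dlx2, Dlx5 and Dlx6 had 0.15, 0.17, -0.020 and -0.12. Dlx4 had -0.37 with TPM-like scaling, -0.37 with a pseudocount of 5 and -0.070 with the most abundant transcript, by which Dlx5 had -0.031; Dlx3 exceeded Dlx4 by 0.37 and 0.069 in these last settings, and Dlx5 exceeded Dlx6 by 0.22 with the most abundant transcript.

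The endothelin median was -0.13 after centring and with upper quartile scaling, 0.31 and -0.0013 with the 2 TPM-like scalings, -0.15 without the length trend and -0.14 with coverage times length. The BMP and FGF median was 0.66, 0.35 and 0.29 with the TPM-like scalings and without the length trend. The lower jaw median was 0.044, 0.047, 0.49, 0.18, -0.013 and 0.033 over the settings from centring to coverage, and -0.24 at a mean FPKM of 5 or more. The upper jaw median was -0.084, -0.39 and -0.44 with the TPM-like scalings and without the length trend, and -0.43 with a pseudocount of 5. TPM-like scaling put 1 BMP and FGF gene and 3 lower jaw genes past 2-fold higher, and the most abundant transcript 1 lower jaw gene past 2-fold lower. No upper jaw gene was past 2-fold with a pseudocount of 5 or a mean FPKM of 5 or more. At 1.5-fold, 8.33% of all compared genes were past the limit in either direction. Lower by that limit were 1 Dlx gene, 1 BMP and FGF gene, 3 lower jaw and 2 upper jaw genes. Higher by it were 3 lower jaw genes. The cause of these shifts beyond the scaling itself was not tested.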

Other observations

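The genes beside the Dlx pairs were set against them. Of 11 neighbours within 200 kb, 9 passed the filter and 1 was past 2-fold. Among all compared genes, 1.36% were at least 2-fold lower and 0.767% at least 2-fold higher. Pdk2, a mitochondrial kinase gene that lies 78.7 kb from Dlx3, stood at 6.64 FPKM in the control library against 2.68 in the mutant. It was thus 2.48-fold lower (2.06 to 2.99), while Dlx3 itself was level on the deposited scale. Samd14 and Fam117a, on either side of the same pair, stood at 33.9 and 17.2 FPKM in the control library against 22.8 and 11.9 in the mutant, and the integrin gene Itga3, the nearest of the named genes to Dlx3, at 8.10 and 10.5. The histone acetyltransferase gene Myst2, on the Dlx4 side, stood at 18.0 FPKM against 14.7. Nearest to any pair, 1.53 kb from Dlx1, the clone AK139461 stood at 0.730 and 1.36 FPKM, a ratio of 1.86 (1.303 to 2.70). Beside Dlx1, Metap1d stood at 8.05 and 10.1 FPKM and Hat1 at 79.7 and 75.1, and beside Dlx5, Acn9 at 11.7 in both. Gm1631 and Tac4 were listed at 0 in both libraries. Pdk2 lay below the median gene under all 10 settings.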
